A study of Homo sapiens with 6 samples.

Results

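The small subunit of the mitochondrial ribosome and the factors that start, extend and end translation on it were examined in MDA-MB-231 cells, an invasive breast cancer line, carrying a stable short hairpin against ATAD3A. The genes are those with a symbol made of MRPS and a number, together with DAP3, PTCD3 and 14 named translation and assembly factors, 44 genes in all. Of these members, 42 were measured, among 19775 genes that have a probe set with a single symbol. MRPS24 was covered only by a probe set that also carries a read-through transcript, and GFM2 was not analysed here. Expression was read from 3 arrays of shATAD3A knockdown cells and 3 arrays of shGFP control cells. Both groups received their hairpin on a pLKO.1 lentivirus, were kept for 2 weeks in puromycin (1.0 µg/ml) and are described as passage 2, so the controls carry the vector and the selection as well. Whether each group was a pool of infected cells or a clone, and how many hairpin sequences were used, is not given in the sources used here, nor is it said that the 3 arrays of a group came from separate cultures. The p-values therefore set the difference between groups against the spread of these arrays within a group, and that spread may be only technical.

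Mitochondria translate a small set of membrane proteins of the respiratory chain from their own genome. They do so on a dedicated ribosome whose proteins are all encoded in the nucleus, made in the cytosol and imported. Its small subunit binds the messenger RNA and checks codon against anticodon, while soluble factors related to those of bacteria bring in the transfer RNAs, move the ribosome along and release the finished chain. ATAD3A is an ATPase of the inner mitochondrial membrane that has been linked to mitochondrial DNA nucleoids and to this ribosome.

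Values are log2 expression values as deposited, so a difference of 1 is a 2-fold difference. Changes are shATAD3A minus shGFP, and a gene is said to have risen or fallen where limma gave a Benjamini-Hochberg adjusted p under 0.05 over all 19775 genes. Levels of different genes come from different probe sets and are not compared with each other. In RNA from bulk cells, a change in the RNA per cell and a change in the share of cells that express a gene cannot be told apart. ATAD3A read 7.41, 7.03 and 7.39 in the shATAD3A arrays and 7.73, 7.78 and 7.80 in the shGFP arrays, a change of -0.49 ± 0.105 (SE; limma adjusted p = 0.0129) on its single probe set, of a type that can bind related transcripts. VIM, CD44, CAV1, AXL and MSN, genes of mesenchymal breast cancer cells, had group means between 13.5 and 15.2. CAV1, AXL, CD44 and MSN were lower in knockdown (-0.25, -0.26, -0.34 and -0.45; limma adjusted p between 0.0004509 and 0.01588), and VIM was not called. ESR1 and PGR, the hormone receptors this line lacks, read 3.43 and 2.68 in knockdown and 3.40 and 2.65 in control. Markers of leukocytes (PTPRC, CD3E and LYZ) and fibroblasts (DCN, LUM, COL1A2 and THY1) had group means between 1.93 and 4.02. Of these, LUM rose, with 4.02 in knockdown and 3.48 in control (0.55, limma adjusted p = 0.03703). LYZ fell, with a change of -0.18 (limma adjusted p = 0.0087), and the others were not called. The low mode of gene means, which holds genes with little signal, ended at 4.7, above all these leukocyte and fibroblast markers.

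The promoters of the 4 genes with the largest changes either way, all of which rose, are shown. They are taken from RefSeq on GRCh38.p14, run from 250 bases before to 50 bases after the annotated start, and are written 5′ to 3′ on the strand of the gene. Capitals mark matches on either strand to 3 motifs found in promoters of nuclear genes for mitochondrial proteins. These are CCGGAAG of the ETS factor GABPA, CGCATGCG, the core of the NRF1 motif, and AAGATGGC of YY1; none of the 3 contains another. TUFM lies on the minus strand at chr16:28846299-28846598, and the others on the plus strand, MRPS35 at chr12:27710582-27710881, MRPS26 at chr20:3045802-3046101 and TSFM at chr12:57782537-57782836.
TUFM: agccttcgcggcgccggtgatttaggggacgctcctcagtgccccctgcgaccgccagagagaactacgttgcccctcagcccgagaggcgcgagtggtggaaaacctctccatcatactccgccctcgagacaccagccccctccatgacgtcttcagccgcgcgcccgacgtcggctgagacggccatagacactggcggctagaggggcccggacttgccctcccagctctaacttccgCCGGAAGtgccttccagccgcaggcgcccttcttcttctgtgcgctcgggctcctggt
MRPS35: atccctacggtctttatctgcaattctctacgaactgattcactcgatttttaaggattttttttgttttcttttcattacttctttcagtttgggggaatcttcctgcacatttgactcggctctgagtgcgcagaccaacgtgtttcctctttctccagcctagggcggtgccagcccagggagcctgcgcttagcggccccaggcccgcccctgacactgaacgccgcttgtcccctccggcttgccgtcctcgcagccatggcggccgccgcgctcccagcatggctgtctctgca
MRPS26: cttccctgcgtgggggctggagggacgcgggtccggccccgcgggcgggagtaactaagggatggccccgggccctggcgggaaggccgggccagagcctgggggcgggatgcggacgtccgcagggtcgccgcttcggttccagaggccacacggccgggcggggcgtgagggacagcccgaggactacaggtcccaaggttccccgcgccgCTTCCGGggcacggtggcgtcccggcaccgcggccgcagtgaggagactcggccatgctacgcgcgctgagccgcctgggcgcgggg
TSFM: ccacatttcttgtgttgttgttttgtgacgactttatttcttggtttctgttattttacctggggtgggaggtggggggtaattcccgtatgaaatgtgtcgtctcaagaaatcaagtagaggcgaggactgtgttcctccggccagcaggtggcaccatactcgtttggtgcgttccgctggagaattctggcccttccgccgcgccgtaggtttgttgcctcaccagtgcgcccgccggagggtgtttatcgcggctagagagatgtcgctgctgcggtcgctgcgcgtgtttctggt

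TUFM held 1 match to the GABPA motif, whose first base as printed lay 8 bases before the start, and MRPS26 held 1 on the opposite strand, whose first base as printed lay 37 bases before the start. In MRPS35 and TSFM these letters were absent from the window. Over the 40 members with a promoter in the table, 18 (45%) held the GABPA motif. Among 7553 promoters of bright genes, those with a mean at or above that of the dimmest member (6.37), 21.6% held it. Of all 35116 promoters, 10.3% did. The bright genes were not matched to the members in level. Of the 18 members with the GABPA motif, MRPS10 fell, MTG2, MTRF1L, MRPS33 and MRPS22 were not called, and the rest rose. Among members without it, MRPS35, TSFM and MRPS9 also rose, and MTIF3, MRPS18B, MRPS30 and MRPS6 fell. The YY1 motif was in 8 (20%) of the member promoters, against 6.32% of the bright genes and 2.89% of all. Its holders went both ways: MRPS7, MRPS12, MRPS27 and MRPS18A rose, MRPS10, MRPS18B and MRPS30 fell, and PTCD3 was not called. The NRF1 core was in 2 (5%), MTRFR and MRPS18C, against 4.46% and 2.02%. With a G before and a C after it, that core was in 0 member promoters, against 2.77% of the bright genes and 1.24% of all. These matches are counts of letters, and binding was not measured.

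Most of these genes were higher in the knockdown. Of the 42, 28 rose (66.7%), 5 fell (11.9%) and the other 9 were not called. Over all genes 33.6% passed, 19.7% upward and 13.9% downward. Among the 8969 genes with a mean at or above that of the dimmest member (6.37), 64.2% passed, 37.7% upward and 26.5% downward. The median change was 0.37 over the members and 0.067 over those 8969 genes. Changes of single members ran between -0.54 and 1.07 with an SD of 0.397, while the median SE of a change was 0.0478. The knockdown and control arrays did not overlap for 37 members, against 73.6% of those 8969 genes and 42.0% of all genes. The median level over the 42 genes was 10.84, 10.92 and 10.97 in the knockdown arrays and 10.63, 10.52 and 10.58 in the control arrays.

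**Figure D1:**
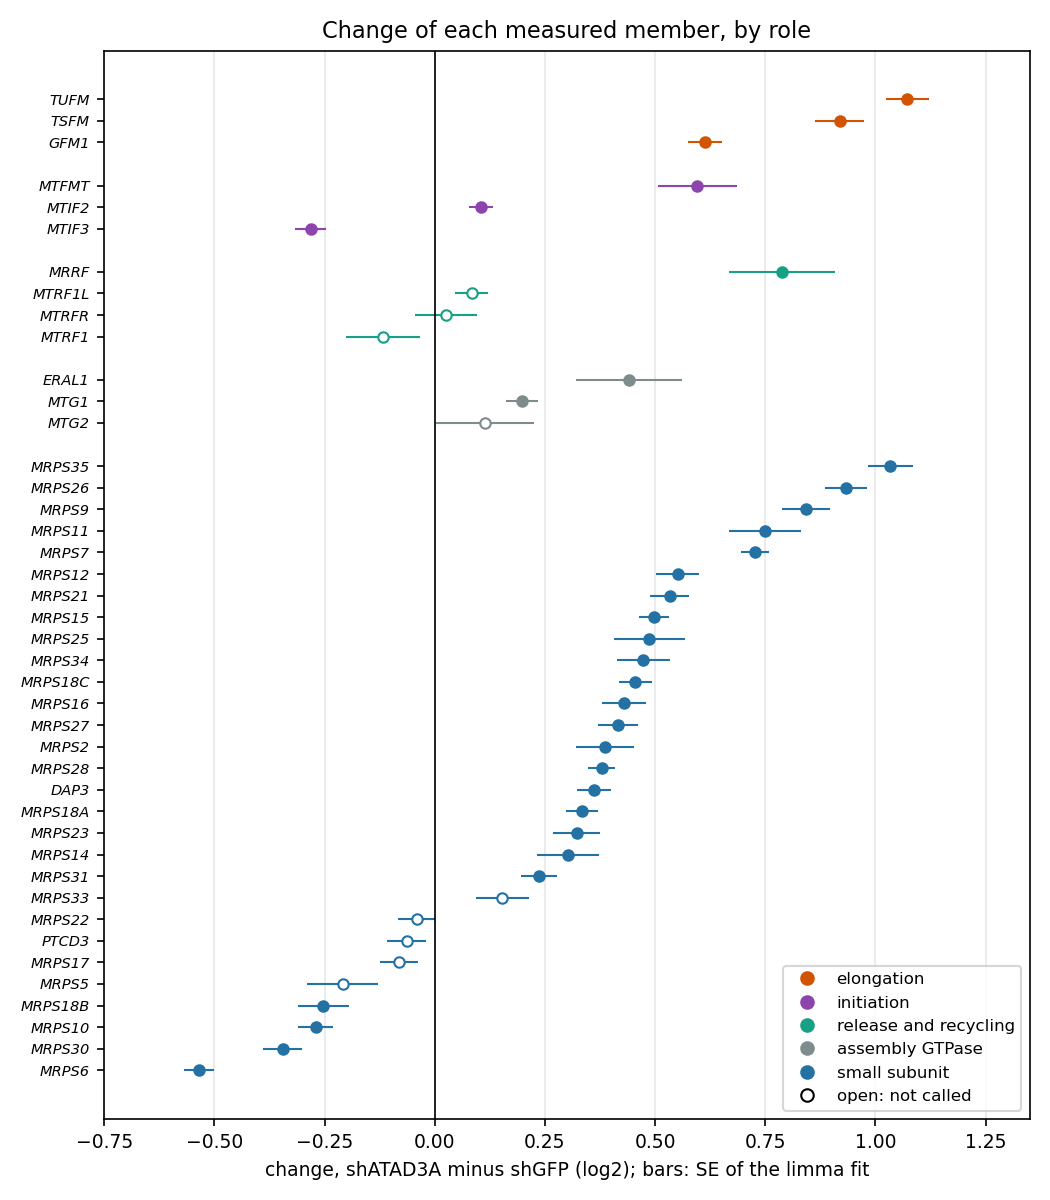
Change of each of the 42 genes (x axis, log2, shATAD3A minus shGFP; bars are the SE of the limma fit over 3 arrays a group), grouped by role. Filled points passed the adjusted p threshold of 0.05 and open points did not; TUFM, TSFM and GFM1, the elongation factors, lie at 0.61 or more, and MTRF1L, MTRFR and MTRF1, the release factors, lie near 0.

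The elongation factors all rose, by 0.61 to 1.07. TUFM, the mitochondrial EF-Tu that carries aminoacyl-tRNA to the ribosome, read 11.98, 11.98 and 12.08 in knockdown arrays and 11.01, 10.87 and 10.94 in control arrays. This was the largest change among the 42 genes, 1.07 ± 0.0493 (SE) or 2.10-fold (limma adjusted p = 2.508e-05), with the lowest knockdown array well above the highest control array. A second and much dimmer TUFM probe set, at 6.60 in knockdown and 5.46 in control, gave 1.14.

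TSFM, the exchange factor EF-Ts that recharges TUFM with GTP, read 9.08, 9.22 and 9.03 in knockdown and 8.20, 8.23 and 8.15 in control. Its change was 0.92 ± 0.0557 (SE) or 1.89-fold (adjusted p = 6.819e-05), and again no knockdown array came near the controls. GFM1, the EF-G1 that moves the ribosome by a codon, read 11.33, 11.29 and 11.30 in knockdown and 10.70, 10.75 and 10.63 in control, a change of 0.61 ± 0.0385 (SE; adjusted p = 7.747e-05). Of the 3 other GFM1 probe sets above the low mode, those at 9.90 and 9.70 in knockdown changed by 0.31 and 0.40, and the dimmest by 0.078 (adjusted p = 0.8827 over probe sets). The size of the GFM1 increase thus depended on the probe set, while its sign was the same in all 4.

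Initiation factors went separate ways. MTFMT, which formylates the initiator methionyl-tRNA, read 8.25, 8.01 and 7.95 in knockdown and 7.48, 7.39 and 7.56 in control, and rose by 0.60 ± 0.0892 (SE; adjusted p = 0.002838). MTIF3, which keeps the subunits apart before initiation, read 10.14, 10.25 and 10.23 in knockdown and 10.49 in each control array, and fell by 0.28 (SE 0.0358; adjusted p = 0.001408). For both genes the groups were apart. MTIF2, which places the initiator tRNA, rose by 0.10 ± 0.0277 (SE; adjusted p = 0.03034). That small call was lost in 9 of the 17 other settings tried, among them the omission of any 1 array except knockdown replicate 1, where adjusted p ran between 0.06299 and 0.1192.

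Release factors showed no call. MTRF1L, which reads the usual stop codons, changed by 0.084 (95% interval -0.0069 to 0.17; adjusted p = 0.1585). MTRF1, its paralog for the unusual stop codons, changed by -0.12 (95% interval -0.33 to 0.091; adjusted p = 0.43). MTRFR, which rescues stalled ribosomes, changed by 0.026 (95% interval -0.14 to 0.20; adjusted p = 0.8967). A change in MTRF1L as large as the smallest among the elongation factors lies outside its interval, as it does for MTRF1 and MTRFR. With all its probe sets averaged, MTRF1 passed at -0.17 (adjusted p = 0.01819). That average includes a probe set in the low mode, at 2.97 in knockdown and 3.24 in control. No MTRF1 probe set passed alone (adjusted p = 0.5224, 0.3978 and 0.3466 over probe sets).

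MRRF, the factor that splits the ribosome for recycling after release, was the 1 gene of this group that rose. It read 8.60, 8.55 and 8.81 in knockdown and 8.09, 7.67 and 7.84 in control, with no overlap. The increase was 0.79 ± 0.121 (SE) or 1.73-fold (adjusted p = 0.003223), on its only probe set.

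Among the GTPases of ribosome assembly, ERAL1, which binds the small subunit RNA, rose by 0.44 ± 0.12 (SE; adjusted p = 0.03427). Its knockdown arrays read 6.83, 6.39 and 6.54 and its control arrays 6.13, 6.04 and 6.27, so the nearest arrays were close. The call was lost without knockdown replicate 3 (adjusted p = 0.07697), without control replicate 1 (0.09716) and without control replicate 2 (0.1028). It was also lost with quantile normalization (0.05659). MTG1, which acts on the large subunit, rose by 0.20 ± 0.0368 (SE; adjusted p = 0.007216), a call lost when the spread was allowed to vary with intensity (adjusted p = 0.08679). MTG2, also a factor of the large subunit, did not pass on its brightest probe set. There it read 8.87, 8.87 and 8.48 in knockdown and 8.61, 8.66 and 8.61 in control, so 1 knockdown array lay below the controls and the other two above. Without that array, knockdown replicate 3, the change was 0.24 (adjusted p = 0.004657). The change was 0.31 (adjusted p = 0.001297) with all MTG2 probe sets averaged. On a second MTG2 probe set, at 8.56 in knockdown and 7.40 in control, the change was 1.16 ± 0.0437 (SE; adjusted p = 3.4e-05 over probe sets).

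**Figure D2:**
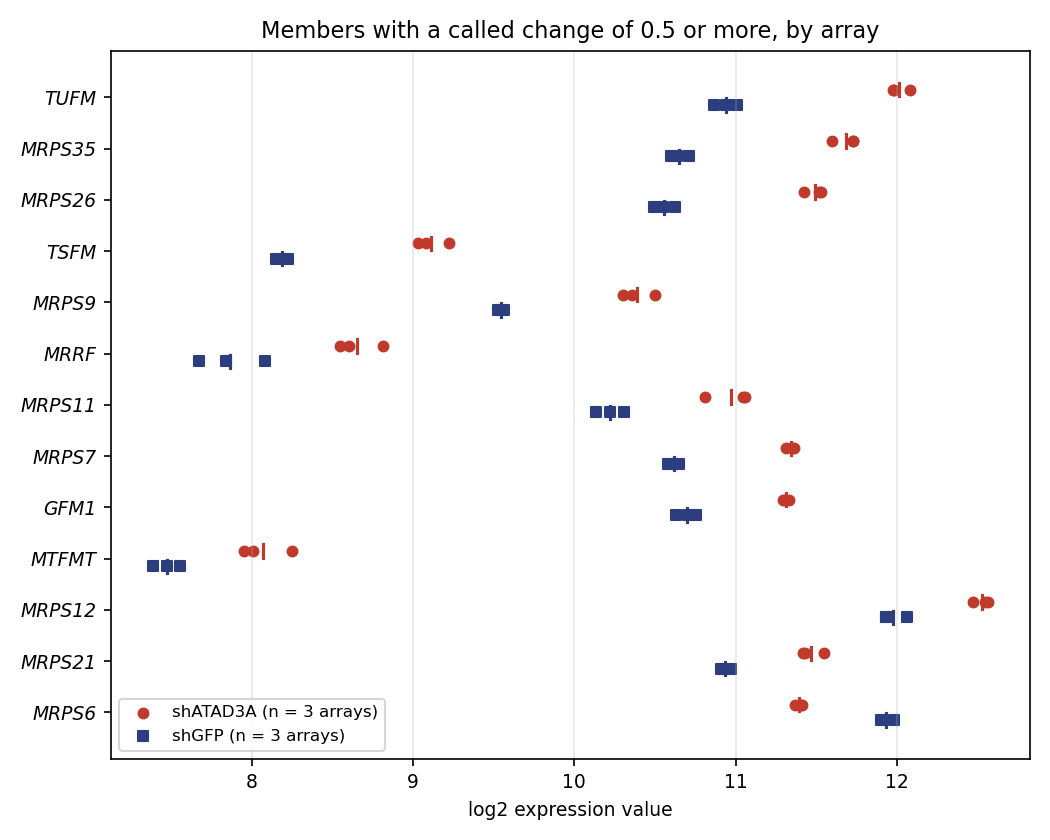
Log2 expression value (x axis) in each of the 3 shATAD3A arrays (red circles, upper row of a gene) and the 3 shGFP arrays (blue squares, lower row), with vertical ticks at the group means, for the 13 genes that passed with a change of 0.5 or more either way. In each gene the 2 groups are apart, the 12 upper genes were higher in knockdown and MRPS6, at the bottom, was lower. Changes of this size were not particular to these genes. The 5th and 95th percentiles of change over the 8969 genes at or above the dimmest member were -0.88 and 0.98.

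Of the 29 small subunit genes by name, 20 rose (69%), 4 fell (13.8%) and 5 were not called, with a median change of 0.38. Among the 8969 genes at or above the dimmest member, 37.7% rose and 26.5% fell, and over all genes 19.7% and 13.9%. MRPS18A and MRPS30 are among the 29 by name, but in solved structures of the mammalian mitochondrial ribosome their proteins sit in the large subunit. Without those 2, 19 of 27 rose and 3 fell. Genes whose proteins carry a family name shared with bacteria in the current nomenclature (uS or bS) rose in 11 of 15 cases and fell in 2, with a median of 0.43. Genes whose proteins carry a name particular to mitochondria (mS) rose in 8 of 12 cases and fell in 1, with a median of 0.34. The 1 that fell, MRPS18B, is an S18 homolog by sequence that bears an mS name. This grouping was made after the values were seen, and the difference between the 2 classes was not tested.

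The largest increases in the subunit itself were in 2 genes of the mS class. MRPS35 read 11.60, 11.73 and 11.72 in knockdown arrays and 10.71, 10.64 and 10.60 in control arrays, a change of 1.03 ± 0.051 (SE) or 2.05-fold (adjusted p = 3.271e-05). MRPS26 read 11.42, 11.53 and 11.52 in knockdown and 10.63, 10.55 and 10.50 in control, a change of 0.93 ± 0.0472 (SE) or 1.91-fold (adjusted p = 3.615e-05). In both the knockdown arrays lay far above the controls, and neither had another probe set above the low mode.

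Next came genes of the uS class. MRPS9, of the uS9 family in the head of the subunit, read 10.30, 10.50 and 10.36 in knockdown and 9.54, 9.56 and 9.53 in control, a change of 0.84 ± 0.0546 (SE; adjusted p = 8.714e-05). MRPS7, of the uS7 family that nucleates the head in bacteria, read 11.31, 11.35 and 11.36 in knockdown and 10.65, 10.58 and 10.62 in control, a change of 0.73 ± 0.0313 (SE; adjusted p = 2.038e-05). Each of these genes had a single probe set above the low mode, and their groups were far apart.

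MRPS12, of the uS12 family at the decoding centre, read 12.47, 12.56 and 12.54 in knockdown and 12.06, 11.93 and 11.93 in control, and rose by 0.55 ± 0.0484 (SE; adjusted p = 0.0002985). Its 2 dimmer probe sets gave 0.78 and 0.66. MRPS21, of the bS21 family, read 11.43, 11.55 and 11.42 in knockdown and 10.92, 10.97 and 10.91 in control, and rose by 0.53 ± 0.0443 (SE; adjusted p = 0.0002368). No array of one group reached the other in either gene.

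A further 13 small subunit genes rose by less than 0.5. MRPS15, MRPS34, MRPS18C, MRPS27, MRPS2, MRPS28, MRPS23 and MRPS31 rose by 0.498, 0.47, 0.46, 0.42, 0.39, 0.38, 0.32 and 0.24. MRPS15 and MRPS31 each had a second probe set above the low mode, with 0.43 and 0.28. MRPS15 gave 0.041 (adjusted p = 0.6068) on the probe set left when those ending in s_at or x_at, designs that can bind several transcripts, were dropped, and that probe set lay in the low mode. MRPS18A, named above, rose by 0.33, and by 0.44 on its other probe set. MRPS25, MRPS16, DAP3 and MRPS14 rose by 0.49, 0.43, 0.36 and 0.30 on their brightest probe sets, and other probe sets of these genes leaned downward. The adjusted p of these 13 genes was between 0.0001081 (MRPS15) and 0.0185 (MRPS14).

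The 4 small subunit genes by name that fell were MRPS6, MRPS30, MRPS10 and MRPS18B. MRPS6, of the bS6 family in the platform, read 11.37, 11.41 and 11.40 in knockdown and 11.91, 11.90 and 11.98 in control. It fell by 0.54 (SE 0.0342), to 0.69 of the control level (adjusted p = 8.237e-05), and its groups were well apart. MRPS30, whose protein sits in the large subunit, read 10.00, 10.10 and 10.07 in knockdown and 10.47, 10.36 and 10.38 in control, and fell by 0.34 (SE 0.0443; adjusted p = 0.001467).

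MRPS10, of the uS10 family, read 12.78, 12.80 and 12.87 in knockdown and 13.13, 13.03 and 13.11 in control, and fell by 0.27 (SE 0.04; adjusted p = 0.002711). Its 2 other probe sets gave -0.46 and -0.47. MRPS18B fell by 0.25 (SE 0.0578; adjusted p = 0.01711). Its adjusted p was 0.05311 when control replicate 2 was left out and 0.05513 when control replicate 3 was. Its other probe set gave -0.066 (adjusted p = 0.2551 over probe sets). The 3 homologs of bacterial S18 thus split: MRPS18C and MRPS18A rose and MRPS18B fell.

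The 5 small subunit genes without a call were MRPS33, MRPS22, PTCD3, MRPS17 and MRPS5, with changes of 0.15, -0.041, -0.064, -0.081 and -0.21. MRPS33 passed without control replicate 1 (0.20; adjusted p = 0.04916), and its groups did not overlap. MRPS22 read between 9.35 and 11.3 in either group mean on 4 probe sets, whose changes all lay between -0.041 and 0.032. MRPS5 leaned downward on all 3 of its probe sets, by -0.21, -0.21 and -0.53, none of which passed, but it was called with its probe sets averaged (-0.27; adjusted p = 0.01617) and when genes below the median level were left out (adjusted p = 0.04851). PTCD3, a pentatricopeptide repeat protein near the messenger RNA entry of the subunit, gave -0.33, -0.24 and -0.14 on its 3 dimmer probe sets, and the first 2 passed (adjusted p = 0.004176 and 0.04666 over probe sets). With its probe sets averaged PTCD3 was called at -0.19 (adjusted p = 0.003572).

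Of the 42 genes, 21 had more than 1 probe set above the low mode. For 15 of these the changes of all such probe sets had the same sign, and for 6 they did not: MRPS22, named above, and MRPS11, MRPS14, MRPS16, MRPS25 and DAP3. MRPS11, of the uS11 family, read 10.81, 11.04 and 11.06 in knockdown and 10.31, 10.14 and 10.22 in control on its brightest probe set, an increase of 0.75 ± 0.0814 (SE; adjusted p = 0.0007157). The other, at 5.67 in knockdown and 5.83 in control, gave -0.16 (adjusted p = 0.05278 over probe sets). The bright signal was thus higher in every knockdown array, while a probe set near the low mode leaned the other way.

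MRPS25 read 9.59, 9.63 and 9.77 in knockdown and 9.31, 9.05 and 9.17 in control on its brightest probe set, and gave -0.097 and -0.51 on the others. MRPS16 read 10.80, 10.92 and 10.88 in knockdown and 10.51, 10.40 and 10.40 in control, against -0.19 (adjusted p = 0.05865) on a probe set at 9.14 in knockdown and 9.33 in control. DAP3, a GTP-binding protein of the subunit, read 12.61, 12.55 and 12.59 in knockdown and 12.28, 12.20 and 12.18 in control, against -0.080 and -0.18 on dimmer probe sets. In these 3 genes the brightest probe set showed no overlap between groups, and none of the opposed values passed. With all probe sets of a gene averaged, however, MRPS25 gave -0.041, and MRPS16 and DAP3 were no longer called (adjusted p = 0.06326 and 0.612). Without s_at and x_at probe sets MRPS16 turned to -0.19 (adjusted p = 0.04665).

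MRPS14 was the 1 gene with probe sets called both ways. Its brightest read 10.60, 10.75 and 10.70 in knockdown and 10.52, 10.29 and 10.34 in control, so the lowest knockdown array was close to the highest control array. The other changed by -0.51 (adjusted p = 0.0389 over probe sets) at 5.16 in knockdown and 5.67 in control. Its increase was also lost without knockdown replicates 2 (adjusted p = 0.0607) or 3 (0.06233) and without control replicates 2 (0.05538) or 3 (0.06498). The direction of MRPS14 is therefore uncertain. Which transcripts the opposed probe sets bind was not tested.

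**Figure D3:**
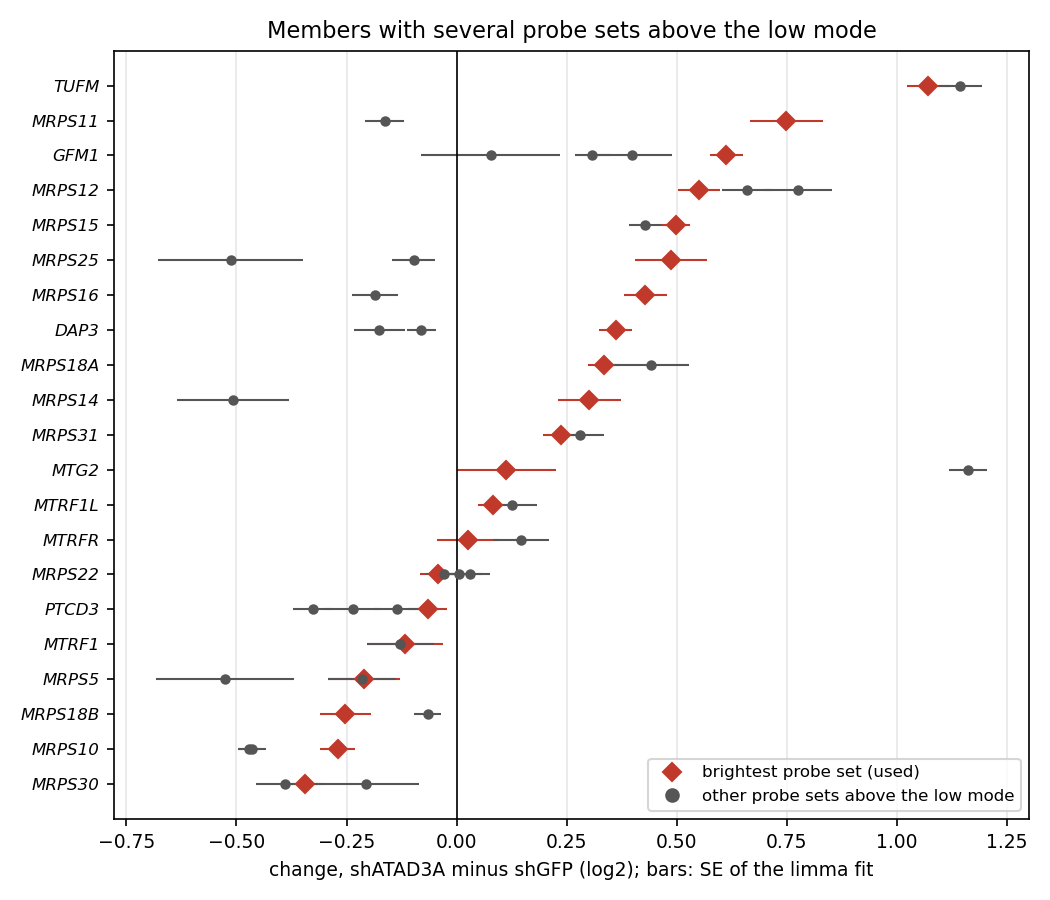
Change (x axis, log2, shATAD3A minus shGFP; bars are the SE of the limma fit) of every probe set above the low mode for the 21 genes that have several. Red diamonds mark the brightest probe set, which gives the value of the gene; in DAP3, MRPS11, MRPS14, MRPS16 and MRPS25 grey points lie on the other side of 0, and in MTG2 a grey point lies at 1.16.

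To see each change beside that of its chromosomal surroundings, each of the 42 genes was set beside the median change of up to 50 neighbouring genes above the low mode, 25 on either side. That median lay between -0.46 and 0.51. TUFM, MRPS35, TSFM and MRPS26, the 4 largest increases, had neighbour medians of 0.51, 0.47, 0.44 and 0.42, and no other gene that rose had one of 0.4 or more. MRPS9, MRRF, GFM1, MRPS12 and MRPS21 rose among neighbours with medians of 0.068, 0.060, 0.033, 0.063 and 0.056.

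Of the 5 genes that fell, MRPS6, MRPS10 and MRPS18B had neighbour medians of -0.33, -0.43 and -0.39, and MTIF3 and MRPS30 had 0.018 and 0.059. MRPS18A rose by 0.33 where its neighbours had a median of -0.46. In all, 34 of the 42 changed more upward than their neighbours' median and 8 did not. Of the 8955 genes at or above the dimmest member with a chromosome in the gene table, 50.4% changed more upward. There were 7 genes that rose where that median was below 0. The correlation of change and neighbour median over the 42 genes was r = 0.68, given as a description of points that share arrays and, for genes on the same chromosome arm, neighbours. With this median subtracted from every gene, a setting added after the data were seen, 26 of the 42 rose and 3 fell, against 32.5% and 32.2% of those 8955 genes. Under that setting MRPS10 turned to 0.16 (adjusted p = 0.01685) and MRPS18B to 0.14 (adjusted p = 0.08104). MRPS2, ERAL1 and MTG1 gave 0.15, 0.23 and 0.041 and were no longer called (adjusted p = 0.09187, 0.1446 and 0.3668). What the shared change of neighbours reflects was not tested.

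**Figure D4:**
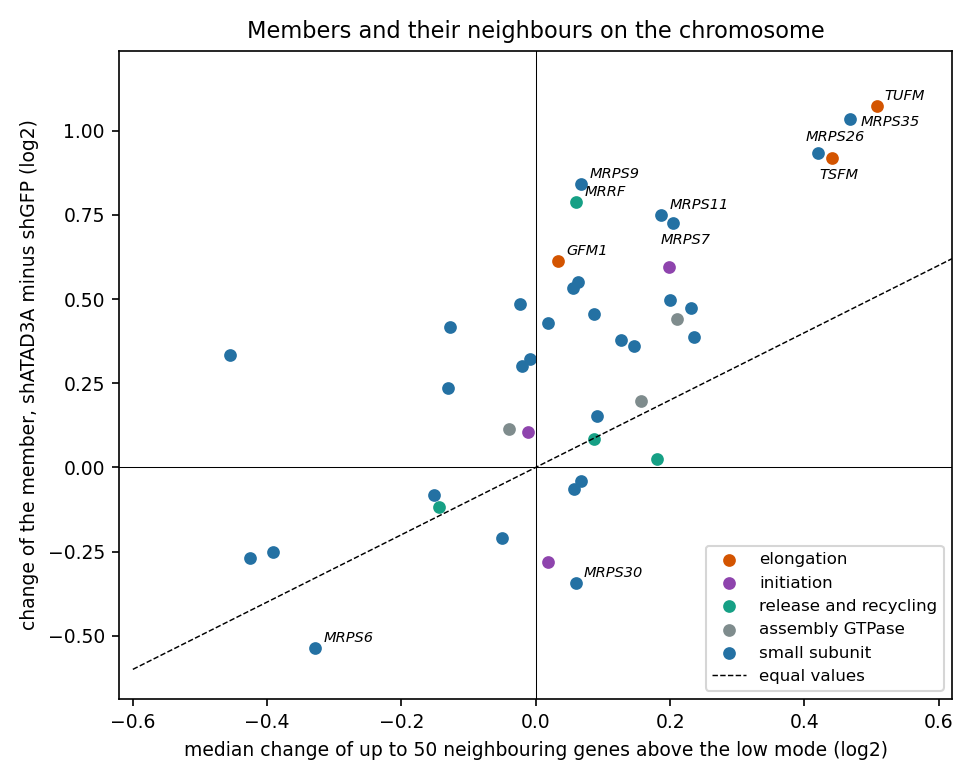
Change of each of the 42 genes (y axis, log2, shATAD3A minus shGFP) against the median change of up to 50 neighbouring genes above the low mode (x axis, log2), coloured by role, with a dashed line at equal values. Most points lie above the line; TUFM, MRPS35, MRPS26 and TSFM stand at the upper right, MRPS6 at the lower left, and MRPS9, MRRF and GFM1 above neighbours close to 0.

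Other genes of mitochondrial translation, taken from a list of assembly factors, RNA modification enzymes, messenger RNA binding proteins and the like, also leaned upward. Of 32 measured, 16 rose (50%), 5 fell (15.6%) and 11 were not called, with a median of 0.23. Over all genes 19.7% rose and 13.9% fell, and among those at or above the dimmest member 37.7% and 26.5%. Some of the 32 lay below that level, MRM1 and GTPBP10 in the low mode. MTERF4, which guides the methyltransferase NSUN4 to the ribosome, rose by 0.76 ± 0.0521 (SE), with 9.58, 9.55 and 9.46 in knockdown and 8.80, 8.82 and 8.68 in control. MRM3, a ribosomal RNA methyltransferase of the large subunit, rose by 0.73 and NOA1, a GTPase tied to the small subunit, by 0.45. These 3 had adjusted p of 0.0001065, 0.0002647 and 0.005402.

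RBFA, which matures the small subunit, fell by 0.57 (SE 0.103; adjusted p = 0.006415), with 7.02, 7.41 and 7.35 in knockdown and 7.81, 7.84 and 7.84 in control. MTO1 and TRMT2B, which modify RNA, fell by 0.37 and 0.35 (adjusted p = 0.0006843 and 0.03926). MTO1 gave 0.035 without s_at and x_at probe sets, and TRMT2B, whose neighbour median was -1.14, gave 0.80 with that median subtracted. The TRMT2B call was also lost when any 1 array except knockdown replicate 2 was left out (adjusted p between 0.05486 and 0.1215). CHCHD1, a small subunit protein without the MRPS name, rose by 0.34, and so did LRPPRC and SLIRP, partners that stabilise mitochondrial messenger RNA, by 0.40 and 0.37. LRPPRC gave -0.040 (adjusted p = 0.8054) when probe sets of the s_at and x_at designs were left out. Of the 48 large subunit genes named MRPL, 33 rose (68.8%), 6 fell (12.5%) and 9 were not called, with a median of 0.31. These values are given beside those of the small subunit with no test of a difference.

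**Figure D5:**
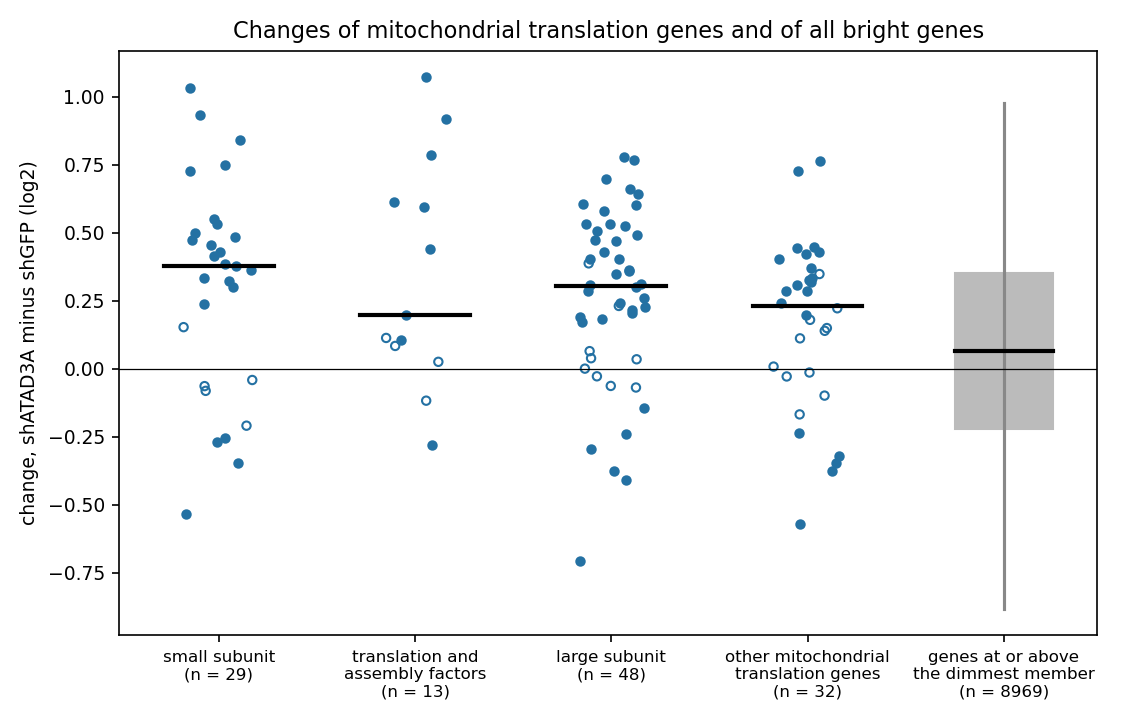
Change (y axis, log2, shATAD3A minus shGFP) of the 29 small subunit genes, the 13 translation and assembly factors, the 48 large subunit genes and the 32 other genes of mitochondrial translation, each point a gene (filled where it passed, open where not) with a black line at the median. The grey box spans the 25th to 75th percentile (-0.22 to 0.35) and the grey line the 5th to 95th (-0.88 to 0.98) of the 8969 genes at least as bright as the dimmest member, with their median of 0.067 in black.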

How the data were processed

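Each of the 6 samples is 1 Affymetrix U133 Plus 2.0 array, prepared from 250 ng of total RNA, per the labels' protocols. Log2 expression is what the authors deposited, judged from the range (0.826 to 16.6) and shape of the values. How probes were summarised and normalized is not given in the sources used here; the submitters' processing notes name Partek, with no version. The medians of the arrays lay between 3.16 and 3.23. No 2 arrays shared more than 0.0165% of values, and 0 value columns were unmatched.

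Of 54675 probe sets, 62 were controls and 41091 had 1 symbol (1801 had several, 11721 none). Probe sets were linked to genes by a platform annotation dated 2016, but the symbols as read are not all of that year. Checked by Entrez ID, they already matched the GRCh38.p14 table (0 updated, 54 not found). The brightest single-symbol probe set stood for each of 19775 genes. All genes were fitted together with limma 3.58.1 in R 4.3.3 (lmFit, eBayes, two-sided, no covariates), with Benjamini-Hochberg adjustment at 0.05 and 3 arrays a group; their number limits the precision. Single probe sets were adjusted over all probe sets that are no controls. Tested on simulated data over 19775 genes for this comparison, with 200 changed, the fit recovered 64% of changes of 0.3, 72% of 0.5, 88% of 1 and 100% of 2, with 10 false among 172 calls. Those 200 were drawn from genes of all levels, while 6644 genes (33.6%) passed in the real data. The simulated rates therefore need not hold for these members.

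The members and lists were chosen with earlier results of these data known. By rule, members are given by role, with array values for called changes of at least 0.5 and for genes whose probe sets differ in sign; array values of MTIF3, MTG2, ERAL1, MRPS30 and MRPS10 were added after their values were seen. From the other list up to 3 genes a direction were named, and CHCHD1, LRPPRC and SLIRP were added likewise. AURKAIP1, of that list, was not analysed here. The low mode boundary, 4.7, is the minimum of the density of gene means. Same-numbered arrays did not deviate together (correlations -0.24, -0.16 and 0.05), so the numbers were not taken as pairs. The promoter window and motifs were read from RefSeq on GRCh38.p14.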

Additional observations from a re-analysis of the deposited data

How the results depend on the processing

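Alternatives covered array normalization, filters on dim genes, the probe set per gene, an intensity trend, array weights, a replicate block, the omission of each array and removal of the neighbour median; the removal restricted to neighbours above the low mode was chosen after seeing the data. ATAD3A stayed lower and past the threshold wherever its value could be computed, with -0.56 to -0.37 when 1 array was left out. Leaving out 1 array, 25 to 28 of the 42 genes rose and 4 to 5 fell, with a median of 0.35 to 0.40. Of the 32 others, 12 to 18 rose and 4 to 5 fell. Over all 19775 genes, 3390 to 3870 rose and 2444 to 2587 fell. With the replicate number as a block, 26 members rose and 5 fell, and 12 of the others rose and 5 fell. Of all 19775 genes, 3513 rose and 2544 fell with that block. ATAD3A then gave -0.49 (adjusted p = 0.02142), and the calls of MRPS14 (0.06108), MTIF2 (0.1502), METTL17, TFB1M, DHX30 and OXA1L were lost. With all probe sets averaged, 24 members rose, 8 fell and the median was 0.19, while 3794 of all 19775 genes rose and 2834 fell. In that setting DAP3 (0.612), MRPS16 (0.06326) and MRPS23 (0.1209) lost their call. Without s_at and x_at probe sets, 29 members were left, of which 17 rose and 5 fell, with a median of 0.24. Of 27 others 7 rose and 2 fell, and of the 17098 genes tested 2743 rose and 2102 fell. Among those 27 others, 6 changes turned sign and RCC1L and MALSU1 lost their call on another probe set, and the cause was not tested. With the neighbour median removed over all genes, 28 members rose and 3 fell, MRPS10 and MRPS18B losing their call (0.09353 and 0.1585). Of the 19720 genes tested there, 4068 rose and 2995 fell. Over bright neighbours, 26 members rose, 3 members and 2 of the others fell, and the member median was 0.28. In that setting 4733 of all genes rose and 7225 fell, against 3895 and 2749 in the reported fit.

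These changes turned sign. With probe sets averaged, MRPS14 read -0.10, MRPS25 -0.041, MTRF1L -0.082 and RPUSD3 -0.0013. Without s_at and x_at probe sets, MRPS14 read -0.51, MRPS16 -0.19, MTRF1L -0.054, MTRFR -0.0087, DAP3 -0.080, METTL17 -0.028, TFB1M -0.097, FASTKD2 -0.19, MTO1 0.035, LRPPRC -0.040 and TACO1 -0.021. MTRFR read -0.038 with array weights and -0.0040 with the neighbour median removed. Over bright neighbours, MRPS10 read 0.16, MRPS17 0.071, MRPS18B 0.14, MTRF1 0.027, MTRF1L -0.0027, MTRFR -0.16, NSUN4 -0.16, YBEY 0.11, TRMT2B 0.80, MALSU1 0.36, MRM2 0.040, DDX28 -0.13, GTPBP3 0.035 and TRMU -0.023. Leaving out 1 array turned 4 genes, none of which had passed: MTRFR lay between -0.027 (without control replicate 1) and 0.076, NSUN4 between -0.068 (without control replicate 2) and 0.100, MRM1 between -0.058 and 0.026 (without control replicate 1), and GTPBP10 between -0.032 and 0.0054 (without knockdown replicate 2). The causes were not tested. Probe set brightness limits what dim genes can show: MRM1 and GTPBP10 lay in the low mode. So did the probe sets that gave MTRFR and MTRF1L without the s_at and x_at designs, with means of 2.14 and 3.17. Averages over all probe sets also include ones in the low mode, as for MTRF1L, MTRF1, MTG2, MRPS5 and MRPS23.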

Other observations

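The probe set shared by MRPS24, of the uS3 family, and its read-through transcript with URGCP read 13.26, 13.43 and 13.37 in knockdown and 13.72, 13.61 and 13.61 in control, a difference of -0.29, with no overlap between the groups. It cannot be given to MRPS24 alone. KGD4, once named MRPS36 and now placed with the 2-oxoglutarate dehydrogenase complex, read 12.17, 12.13 and 12.15 in knockdown and 12.09, 12.14 and 12.07 in control, a difference of 0.05, with overlapping groups.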
